A study of Mus musculus with 13 samples.

Results

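OBF1, encoded by Pou2af1, is the coactivator that octamer factors recruit to immunoglobulin promoters. Its gene and 4 genes of partners or targets, Pou2f2, Siah1a, Siah2 and Spib, were compared in early B cell progenitors. They were taken by name, with every probe set that the platform annotation gives to 1 of them alone. This yielded 10 probe sets of the 34945 with a single gene symbol and of 45037 tested. The cells were EPLMs, progenitors with lymphoid and myeloid potential, which were sorted from the bone marrow of 3 WT mice and 3 BCS mice aged 7 weeks, of the strain B6CF1 x C57BL/6. BCS mice carry a human OBF1 cDNA with an HA tag, driven by the Eμ enhancer and a VH promoter, which can be active in T cells too. WT and BCS mice were littermates, and the labels do not say which of the independent BCS lines was used for the arrays. The EPLM gate included the markers B220, c-kit and CD93 and left out NK1.1+ cells, and there was 1 array per mouse. The 7 arrays of large preB cells were not used, since their values do not follow the probe set names (between EPLMs and preB cells, mean log2 intensities had r = 0.0944 over the 45037 probe sets but r = 0.978 over 64 control features).

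In B lymphocytes the POU proteins Oct1 and Oct2 bind the octamer motif, and OBF1 joins them there and activates transcription. Oct2, the product of Pou2f2, is enriched in the B lineage, and Oct1, the product of Pou2f1, is found in most cells. Spi-B, an ETS factor of B cells and plasmacytoid dendritic cells, is encoded by Spib, which lies downstream of OBF1 in mature B cells. SIAH proteins are RING finger ubiquitin ligases that bind OBF1 and lead to its degradation.

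The promoters of Pou2af1 and Spib are shown because these genes encode the coactivator and a known target. RefSeq promoter windows of build GRCm38.p6 were found for 4 of the 5 genes, Pou2af1, Pou2f2, Siah1a and Spib. The octamer ATGCAAAT was searched on both strands of each window (250 bases before the annotated start and 50 after). None of the 4 windows held it, against 1.75% of 32544 windows. Its relaxed forms ATGCAAAN and ATGNAAAT (N is any base) were also absent from the 4 windows, against 4.64% and 5.66% of windows. The PU box core GAGGAA, searched for Spi-B, was in the Pou2af1 and Pou2f2 windows and in 28.1% of windows. The shorter form TGCAAAT, which lies within the octamer and was searched after the sequences had been seen, occurred once each in Pou2af1, 231 bases before the start, and in Spib, 248 bases before it, and in 4.04% of windows. The core of the cyclic AMP response element, TGACGT, was searched at the same time, and was found in the Pou2af1 window, 61 bases before the start, and in 7.55% of windows. These matches are letters in a window and no binding was measured here. Capitals mark TGCAAAT and TGACGT in the 250 bases before each start, at chr9:51213440-51213689 on the plus strand for Pou2af1 and chr7:44532072-44532321 on the minus strand for Spib.
Pou2af1: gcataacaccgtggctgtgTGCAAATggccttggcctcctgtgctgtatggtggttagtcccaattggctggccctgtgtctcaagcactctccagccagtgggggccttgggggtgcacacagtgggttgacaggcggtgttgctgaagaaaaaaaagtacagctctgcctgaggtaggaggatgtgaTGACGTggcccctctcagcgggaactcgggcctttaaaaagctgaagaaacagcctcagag
Spib: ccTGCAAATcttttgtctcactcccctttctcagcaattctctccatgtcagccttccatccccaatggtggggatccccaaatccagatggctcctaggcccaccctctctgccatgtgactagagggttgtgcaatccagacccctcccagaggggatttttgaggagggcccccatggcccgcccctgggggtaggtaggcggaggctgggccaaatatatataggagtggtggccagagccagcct

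Intensities had been normalized with GCRMA, and each array had a median of 20. Changes are given on the scale of log2 of the intensity plus 1, for BCS minus WT, from limma fitted over all 45037 probe sets. A gene is said to rise or fall where its probe set had an adjusted p (Benjamini-Hochberg) under 0.05. By this rule 5.49% of all probe sets were called, 2.24% higher and 3.25% lower in BCS EPLMs. Among the 10 probe sets of the OBF1 group, 1 was called higher and none lower (1 of the lower ones had an unadjusted p under 0.05 from limma, and the methods' t-test called none after adjustment). The genotypes did not overlap in 6 of the 10, beside 23.9% of all probe sets. The 6 include Pou2f2 probe sets 1443885_at and 1427725_a_at, below the array median in all mice, and both probe sets of Siah2. The 6 are thus not separate results, and the shares are not read as a difference. Of the genes that define the EPLM gate, Kit had similar means of 481 ± 26.5 (WT, SD, n = 3) and 477 ± 20.4 (BCS, SD, n = 3). Cd93 went from 16748 to 20463 without passing, and Ptprc, whose products include B220, fell from 20499 to 15540. The level of B220 itself was not measured here. Klrb1c, which encodes NK1.1, had no probe set with 1 symbol. The number of arrays limits the precision of all values.

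**Figure D1:**
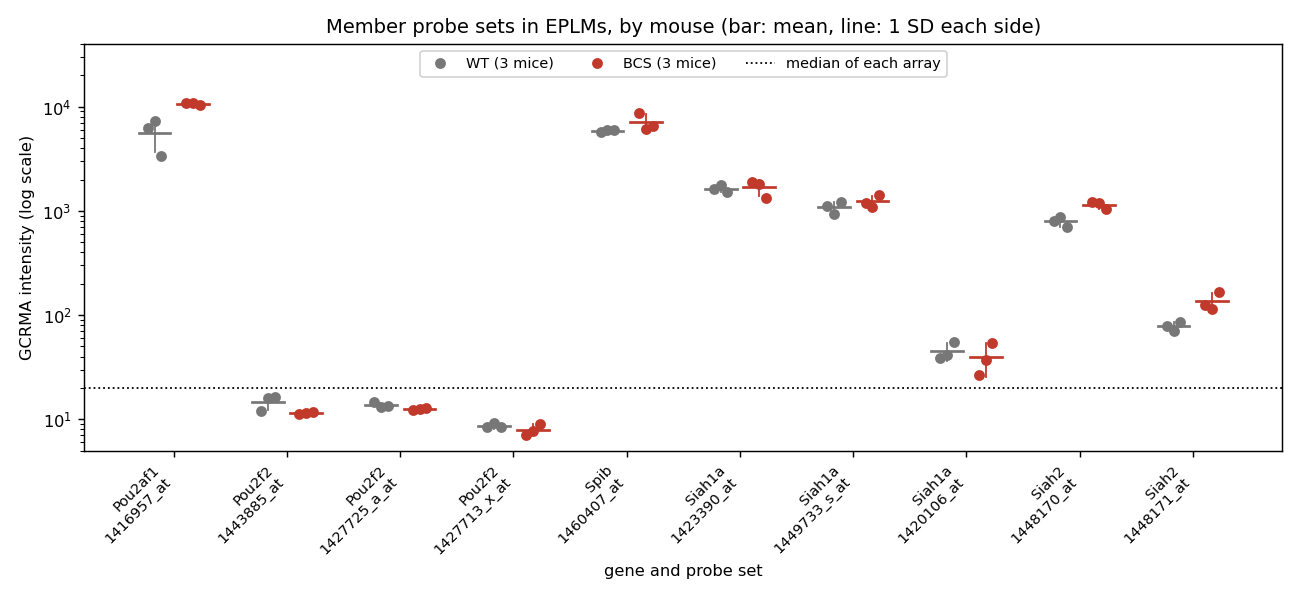
GCRMA intensity (log axis) of the 10 probe sets of Pou2af1, Pou2f2, Spib, Siah1a and Siah2 in EPLMs of 3 WT (gray) and 3 BCS (red) mice. Points are mice, horizontal bars are means and vertical lines reach 1 SD to each side. The dotted line is the array median of 20, and the 3 Pou2f2 probe sets lie below it in all 6 mice.

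Pou2af1 was already bright in WT EPLMs and rose in BCS mice. Its only probe set, 1416957_at, had intensities of 6278, 7250 and 3400 in the WT mice and of 10784, 10858 and 10323 in the BCS mice. All BCS mice thus lay above all WT mice, and the WT mice were spread 2.13-fold from lowest to highest while the BCS mice were within 1.05-fold. The ratio of the means was 1.89, and the log2 change was 0.99 (standard error 0.23, 95% interval 0.46 to 1.51, adjusted p = 0.0436 from limma). The group medians were less than 2-fold apart, so that Pou2af1 missed the methods' rule of an unadjusted p under 0.01 and a 2-fold difference, which 2.88% of probe sets met. The lowest value belonged to WT replicate 3, and without this mouse the log2 change was 0.66 (adjusted p = 0.00594 from limma). Leaving out WT replicate 1 ended the call (adjusted p = 0.0599 from limma), as did leaving out BCS replicates 1, 2 or 3 (adjusted p = 0.105, 0.132 and 0.114 from limma). It was also lost without an intensity trend and with robust variances in limma (adjusted p = 0.0962 and 0.109). Whether this mouse probe set reads the human transgene is not known, so the value cannot serve as a check of the labels, and transcripts of both genes cannot be told apart here. By qPCR, the study did not detect endogenous OBF1 transcripts in WT EPLMs and reported that they rose in BCS EPLMs. Why the WT array values differ from that qPCR result was not tested.

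The WT mouse that was lowest for Pou2af1 was also lowest for B lineage markers. The summed intensity of the 14 measured markers of this list was 78190, 96083 and 70536 in the WT mice and 135523, 120081 and 131306 in the BCS mice. Relative to the WT mean, the median marker lay at -0.01, 0.26 and -0.34 on the log2 scale in the WT mice, and Pou2af1 at 0.23, 0.43 and -0.66. In the BCS mice the median marker lay at 0.73, 0.47 and 0.75, and Pou2af1 at 1.01, 1.02 and 0.94. Of the 14 markers 7 rose and the others did not pass. Of 18193 genes, each by its brightest probe set, 3.15% rose and 4.7% fell, 7.85% in all. Among the markers that rose were Vpreb3 with a log2 change of 2.27, Igll1 with 1.47, Cd79b with 1.23, Pax5 with 1.12 and Ebf1 with 0.95. The 3 markers with a negative log2 change, Ms4a1 with -0.93, Cd22 with -0.32 and Il7r with -0.23, did not pass. No marker of this list lay below the array median in all mice. Between 2 and 7 of the markers passed when 1 mouse was left out. More cells of the B lineage and more RNA per cell cannot be told apart in sorted bulk samples, and the part of the markers in the Pou2af1 change was not tested.

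A probe set of Ebf1, which encodes a factor known to regulate Pou2af1, followed Pou2af1 most closely over the 6 mice, by a small margin. Of 18552 probe sets with 1 symbol and group means above 20, the smallest root mean square difference from Pou2af1 was that of Ebf1 probe set 1439789_at (0.12 on the log2 scale, each value taken as its difference from the WT mean). This probe set had intensities of 1692, 2244 and 1138 in the WT mice and of 3450, 3205 and 2769 in the BCS mice, so that its log2 change was 0.94 (standard error 0.22, limma adjusted p = 0.042). Next came Zfp386, a zinc finger gene, at 0.13, and Grk5, a kinase gene of G protein-coupled receptors, at 0.14. Their log2 changes of 0.95 and 0.99 did not pass (adjusted p = 0.0829 and 0.121 from limma), and Grk5 lay below the array median in 1 WT mouse. All of these probe sets were picked for their closeness to Pou2af1 in the same 6 mice. Log2 changes near that of Pou2af1 therefore follow from the selection and are not separate results. The brightest Ebf1 probe set was not among them. Whether Ebf1 had a part in the Pou2af1 change was not tested.

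Pou2f2 was at background in EPLMs of both genotypes. None of its 3 probe sets exceeded the array median in any of the 6 mice. The brightest, 1443885_at, had intensities of 12.0, 16.1 and 16.2 in the WT mice and of 11.3, 11.4 and 11.6 in the BCS mice. The BCS values were lower than all WT values, and the log2 change was -0.33 (standard error 0.12, limma adjusted p = 0.189). The other Pou2f2 probe sets, 1427725_a_at and 1427713_x_at, had log2 changes of -0.11 and -0.10 (adjusted p = 0.597 and 0.592 from limma). At this level neither a change of Oct2 transcripts nor their absence can be read from the arrays. Without WT replicate 1 the brightest probe set passed (log2 change -0.46, adjusted p = 0.0466 from limma), still below the array median in all mice. Pou2f3, an octamer factor gene of epithelial cells, was likewise dim on every array, with means of 14.3 in WT and 11.5 in BCS mice (log2 change -0.29, adjusted p = 0.148 from limma). Pou2f1 has no probe set with 1 symbol and was not analysed here.

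Spib was bright in every EPLM sample and did not pass. Its probe set 1460407_at had intensities of 5683, 6035 and 5934 in the WT mice and of 8606, 6101 and 6575 in the BCS mice. The WT mice lay within 1.06-fold of each other, and the BCS mice lay above them, BCS replicate 2 by little. The log2 change was 0.25 (standard error 0.12, 95% interval -0.02 to 0.53, adjusted p = 0.309 from limma), and without BCS replicate 1 it was 0.11 (adjusted p = 0.545 from limma). The interval leaves room for a rise of up to 0.53, but not for a fall of more than 0.02 on the log2 scale.

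Spib is known for its role in plasmacytoid dendritic cells, and most measured markers of that cell type fell while Spib did not pass. Of 15 measured markers 12 fell in BCS EPLMs, beside 4.7% of all genes. Tlr7, Tlr9 and Ly6d did not pass, with log2 changes of -0.73, -0.18 and -0.07. All 15 had lower means (51.7% of all genes had higher ones), with a median log2 change of -1.67 beside 0.01 for all genes. The list was chosen with earlier results of these data known, so these counts are not independent evidence. The kallikrein genes Klk1 and Klk1b27 are near-identical copies whose probe sets may share signal. Klk1 had at least 2218 in each WT mouse and at most 18.0 in each BCS mouse, below the array median of 20, so that the size of its fall is not measured. Klk1b27 had at least 2352 in each WT mouse and 11.3, 372 and 12.2 in the BCS mice, so that BCS replicate 2 alone was above the array median. Pacsin1 had a log2 change of -4.44. The chemokine receptor gene Ccr9 had a log2 change of -3.29, Bst2 one of -2.32 and the surface lectin gene Siglech one of -1.67. The summed intensity of the list lay between 94018 and 107937 in WT and between 43246 and 57165 in BCS mice. No marker of the list was below the array median in all 6 mice, and Siglech and Bst2 retained means of 840 and 1045 in BCS mice. In the BCS mice the median marker lay at -1.25, -1.77 and -1.54 relative to the WT mean, and Spib at 0.55, 0.05 and 0.16. BCS replicate 1, the highest mouse for Spib, thus had the highest median of the 3 BCS mice. The part of these cells in the Spib level was not tested.

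**Figure D2:**
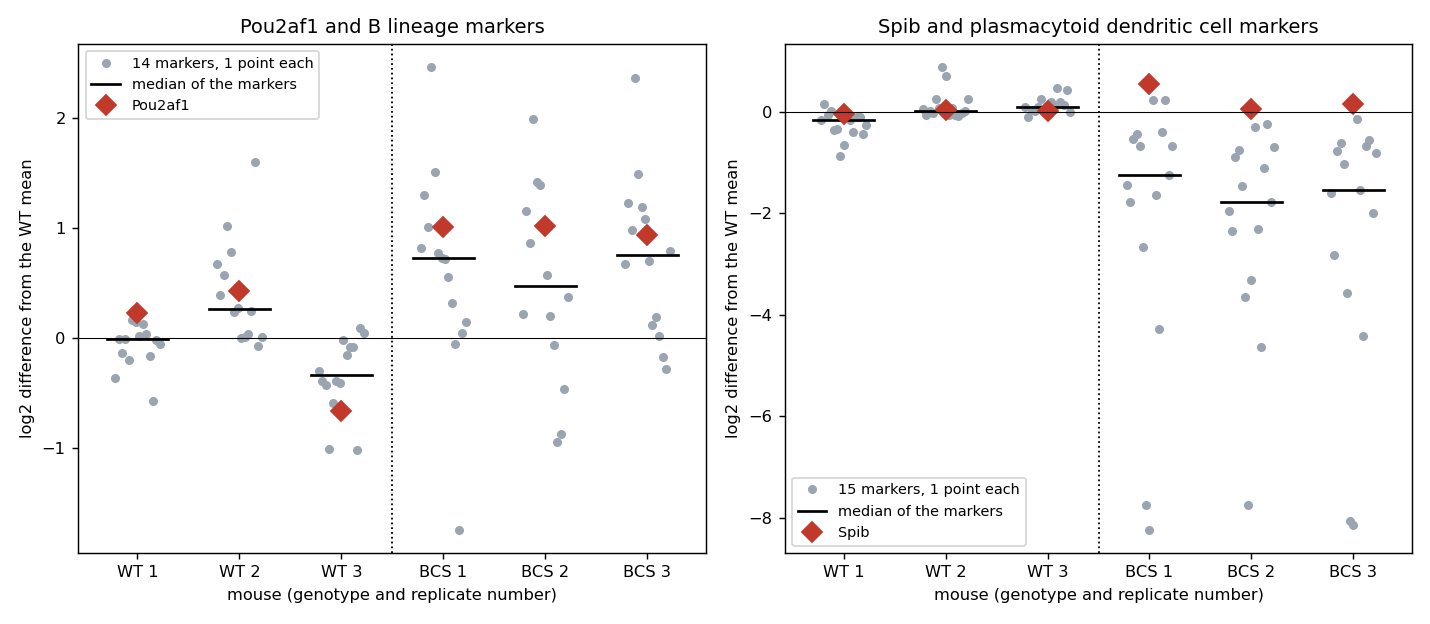
Log2 difference of each mouse from the WT mean (vertical axis) for 3 WT and 3 BCS mice (horizontal axis). Red diamonds are Pou2af1 (left) and Spib (right), gray points are the 14 measured B lineage markers (left) and 15 plasmacytoid dendritic cell markers (right), and black bars are the marker medians. In BCS mice Pou2af1 lies between 0.94 and 1.02, and Spib between 0.05 and 0.55, above the medians of -1.25 to -1.77.

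Relatives and partners of Spi-B were mixed. Of 13 measured ETS and IRF genes 3 rose and 2 fell (3.15% and 4.7% of all genes), with a median log2 change of 0.07. The risers were Ets2 with a log2 change of 2.13, Erg with 0.65 and Ets1 with 0.64, all of which encode ETS factors. The fallers were Irf4 and Irf8, whose products bind composite DNA elements with Spi-B or PU.1, with log2 changes of -1.70 and -0.60. Irf8 is also on the list of plasmacytoid dendritic cell markers. Spi1, which encodes PU.1, had means of 227 in WT and 221 in BCS mice and a log2 change of -0.04 (95% interval -0.44 to 0.36, adjusted p = 0.949 from limma).

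The ubiquitin ligase genes Siah1a and Siah2 were both above background. Siah2 had higher intensities in all BCS mice on both of its probe sets and missed the threshold on each. On the brightest, 1448170_at, the WT mice had 799, 877 and 699 and the BCS mice 1205, 1195 and 1032. The log2 change was 0.53 (standard error 0.14, 95% interval 0.21 to 0.85, adjusted p = 0.0667 from limma). On the dimmer one, 1448171_at, the WT mice had 78.1, 69.7 and 86.1 and the BCS mice 124, 115 and 166. The log2 change was 0.77 (standard error 0.20, 95% interval 0.32 to 1.22, adjusted p = 0.0622 from limma). The genotypes did not overlap on either probe set. The brightest probe set passed with robust variances (adjusted p = 0.0491) and with dim probe sets left out (adjusted p = 0.0344 from limma). The dimmer one passed without an intensity trend (adjusted p = 0.0407) and with dim probe sets left out (adjusted p = 0.0437 from limma). Siah2 also passed when its probe sets were averaged and genes were fitted (log2 change 0.65, adjusted p = 0.00604 from limma). Both probe sets read 1 gene in the same mice and are not independent of each other.

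Siah1a showed no such difference on any probe set, and its genotypes overlapped on all 3. The brightest, 1423390_at, had intensities of 1612, 1776 and 1526 in the WT mice and of 1886, 1817 and 1330 in the BCS mice. Its log2 change was 0.02 (95% interval -0.32 to 0.36, adjusted p = 0.968 from limma). The second probe set, 1449733_s_at, had a log2 change of 0.19 and the dimmest, 1420106_at, one of -0.24 (adjusted p = 0.594 and 0.71 from limma). A probe set that reads Siah1a and its paralog Siah1b together, and so is no member, had means of 338 and 420 and a log2 change of 0.30 (adjusted p = 0.477 from limma). Whether the changes of Siah2 and Siah1a differ was not tested.

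**Figure D3:**
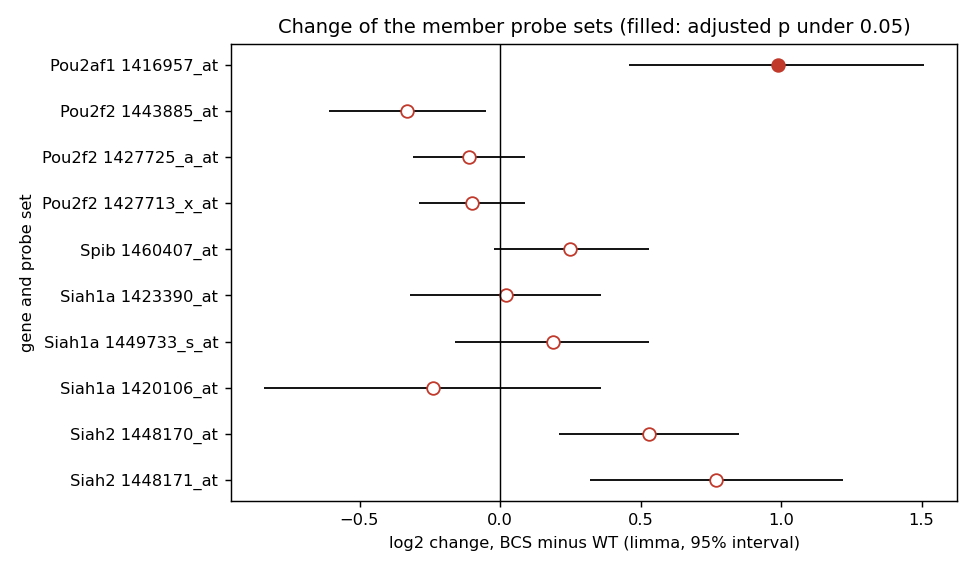
Log2 change between BCS and WT EPLMs (horizontal axis) of each of the 10 probe sets, with its 95% interval from limma (3 mice per genotype). Filled points passed at an adjusted p under 0.05, which was the case for Pou2af1 alone (0.99). The intervals of both Siah2 probe sets (0.21 to 0.85 and 0.32 to 1.22) lie above 0, and that of Spib reaches from -0.02 to 0.53.

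The list of SIAH ligases and their partners had 10 measured genes, which include both members. None passed at an adjusted p under 0.05 with limma or with the methods' t-test, which the study used at an unadjusted p under 0.01. With limma 3 had an unadjusted p under 0.05. Over the list the median change was 0.09 on the log2 scale. The 3 were Siah2, then Cacybp, which encodes the adaptor that binds SIAH1 and Skp1, and Skp1 itself. The means of Cacybp were 6917 ± 814 in WT and 9723 ± 1466 in BCS mice (SD, n = 3 each), with a log2 change of 0.49 (adjusted p = 0.0593 from limma). Those of Skp1 were 5611 ± 391 and 6565 ± 388 (SD, n = 3 each), with a log2 change of 0.23 (adjusted p = 0.173 from limma). The ubiquitin conjugating enzyme genes Ube2d1, Ube2d2a, Ube2d3 and Ube2e1 had log2 changes between -0.13 and 0.15, Tbl1x one of 0.12 and Pias1 one of -0.12. With robust variances or with dim probe sets left out, 2 genes of the list passed.

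Genes that have been described as octamer or OBF1 targets moved in both directions. Of 18 measured genes 5 rose and 4 fell (3.15% and 4.7% of all genes), with a median log2 change of 0.16. The risers were Cxcr5, the chemokine receptor gene of follicular B cells, Id3 and Id2, which encode inhibitors of E proteins, Cd79b, which encodes Ig beta, and Ebf1. Cxcr5 was near the array median in WT mice, at 22.4 ± 1.70, and reached 106.5 ± 21.3 in BCS mice (SD, n = 3 each), with a log2 change of 2.18 (adjusted p = 0.000367 from limma). The fallers were the plasma cell marker gene Sdc1 with a log2 change of -4.88, Ahnak with -2.11, the kinase gene Blk with -1.94 and the calcium binding protein gene S100a10 with -1.03. Ighm, the μ heavy chain gene, had a log2 change of 0.48 and Jchain, the joining chain gene, one of 0.13 (adjusted p = 0.159 and 0.912 from limma). Crisp3 and Il6 were dim on every array, and Btk, a kinase of B cell receptor signaling, had a log2 change of -0.12 (adjusted p = 0.783 from limma). The study had picked out Id2, Id3, Ebf1, Sdc1 and S100a10 from these samples, and Pax5 of the regulators described next. Neither their directions nor their part in the counts is therefore independent evidence.

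Among regulators and functional partners of OBF1, Ebf1 and Pax5 rose and the other 6 of 8 measured genes did not pass. Over the 8 genes the median change was -0.22 on the log2 scale. Creb1, whose product binds cyclic AMP response elements such as that in the Pou2af1 promoter, had a log2 change of 0.17 (adjusted p = 0.358 from limma), and Crem, of the same family, one of -0.88 (adjusted p = 0.135 from limma). Syk, the tyrosine kinase that binds the cytoplasmic OBF1 isoform, had a log2 change of -0.22 (adjusted p = 0.362 from limma). Ikzf3, which encodes Aiolos, had means of 142 ± 136 in WT and 48.7 ± 35.8 in BCS mice (SD, n = 3 each), and the interval of its log2 change reached from -3.29 to 0.26. Ikzf1, which encodes Ikaros, had a log2 change of -0.22 (adjusted p = 0.064 from limma) and Tcf3, which encodes E2A, one of -0.41 (adjusted p = 0.168 from limma). The count of 2 became 0 to 4 when 1 mouse was left out.

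**Figure D4:**
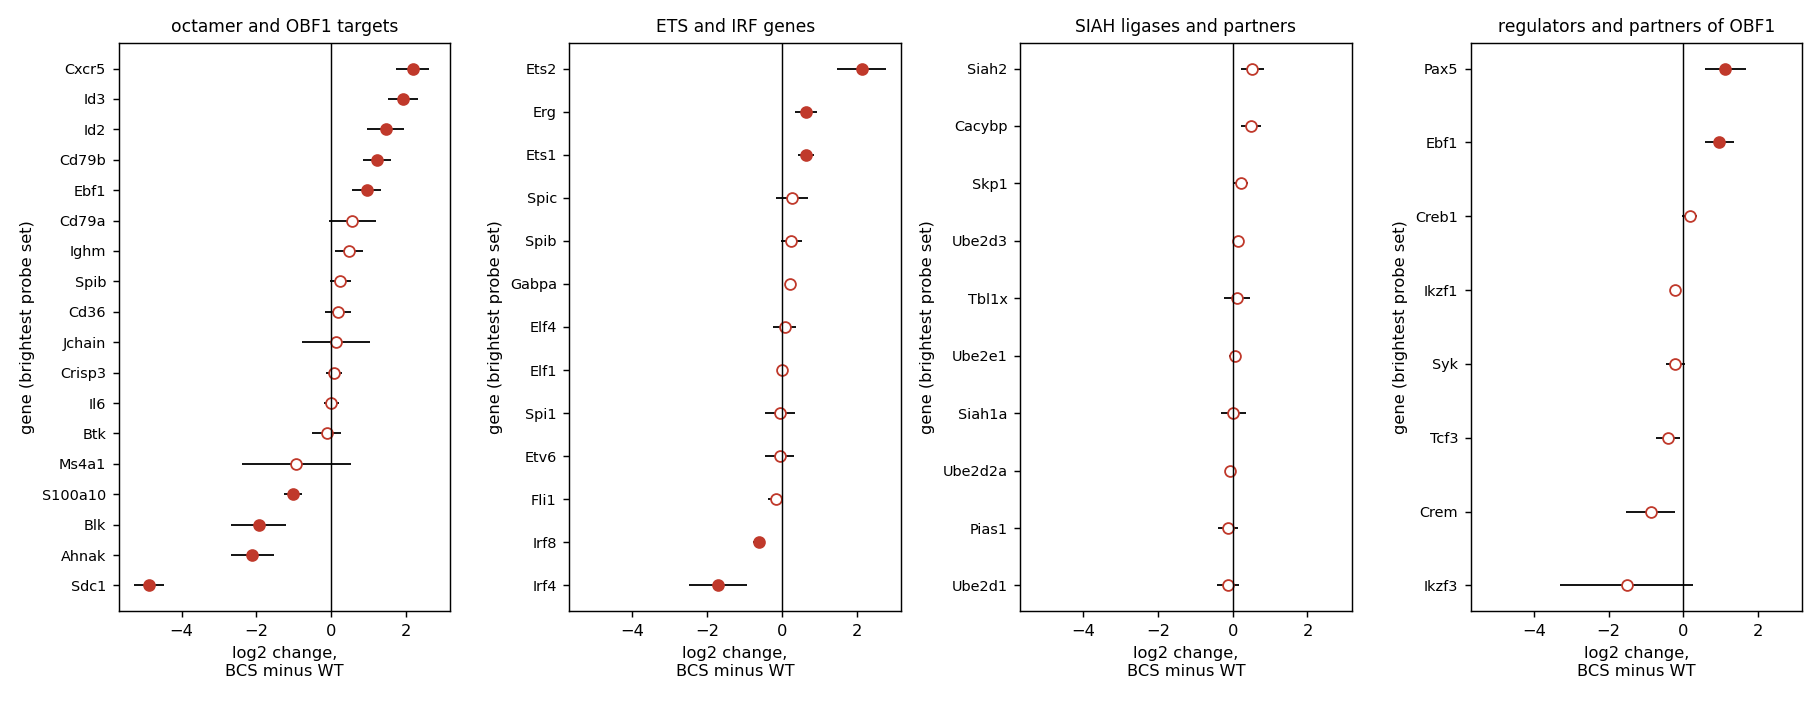
Log2 change between BCS and WT EPLMs (horizontal axis) with its 95% interval from limma, for the brightest probe set of each measured gene of 4 lists (3 mice per genotype). Filled points passed at an adjusted p under 0.05: 9 of 18 octamer and OBF1 targets, 5 of 13 ETS and IRF genes, 0 of 10 SIAH ligases and partners and 2 of 8 regulators and partners of OBF1. The passing genes include Id2, Id3, Ebf1, Sdc1, S100a10 and Pax5, which the study had picked out from these samples.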

How the data were processed

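EPLM RNA of 6 mice was measured on Affymetrix mouse arrays, 1 per mouse. The intensities were normalized by the authors with GCRMA and deposited on a linear scale, and the arrays of a cell type share 1 distribution. Genome build and GCRMA version are not given in the sources used here. The methods and the labels differ on whether RNA was labeled in 2 cycles or 1. A constant of 1 was added before log2, and linear models were fitted with limma 3.58.1 under R 4.3.3 (eBayes with an intensity trend) over 45037 probe sets, without 64 control features and without covariates, with Benjamini-Hochberg adjustment. Lists used the brightest probe set with 1 symbol per gene (34945 probe sets had 1 symbol, 932 several and 9160 none), and older symbols were updated through the gene ID. The genes named are all members, called list genes (up to 5 per list by size), every gene of the POU2, SIAH and regulator lists, genes of the gate, and the 3 genes most like a called member. Others were named after their values were seen. The members and lists were chosen with earlier results of these data known. The fits were tested on simulated data. Alternatives were the methods' t-test, other variance priors, filter, normalizations, weights, offsets, thresholds and probe set rules, the replicate number as a block, and leaving out each mouse. Replicates differed by an SD of 0.38 to 0.42 on the log2 scale among probe sets above the array median, and no array was a copy of another. One marker of the gate is not reported here.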

Additional observations from a re-analysis of the deposited data

How the results depend on the processing

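Under 15 settings beside leaving out mice, Spib kept its direction and side of the threshold in 15 (log2 changes of 0.23 to 0.27), Pou2f2 in the 14 that measured it, Siah1a in 13, Siah2 in 12 and Pou2af1 in 8, and the cause of the losses was not tested. The Pou2af1 call was lost with the methods' t-test on log2 values (0.99, adjusted p = 0.297) and on linear values (0.92, adjusted p = 0.196), without a trend (0.99), with robust variances (0.99), with averaged probe sets (0.99, adjusted p = 0.0511 from limma), at an adjusted p under 0.01 (0.99) and by the methods' rule of an unadjusted p under 0.01 and 2-fold medians (0.99). Siah1a turned to -0.01 with averaged probe sets and to -0.24 on the probe set of largest spread, and Siah2 passed with robust variances (0.53), with the filter on dim probe sets (0.53) and with averaged probe sets (0.65). The count of member probe sets called higher, 1, became 3 with the filter and 0 with either t-test, the stricter threshold and the methods' rule. The methods' rule was applied here to unadjusted p-values from limma. The t-tests were judged at an adjusted p under 0.05, whereas the study used its t-test at an unadjusted p under 0.01 with 2-fold medians. The t-tests on log2 and on linear values called 2 and 1 octamer and OBF1 targets (9 with limma), 1 and 0 B lineage markers (7), 2 and 0 plasmacytoid dendritic cell markers (12), and 0 in the lists of POU2 genes (1), ETS and IRF genes (5), regulators (2), myeloid (2), NK cell (2), T cell (3) and erythroid markers (1). The POU2 count was also 0 without a trend, with robust variances, with averaged probe sets, at the stricter threshold and by the methods' rule. The SIAH count, 0, became 2 with robust variances, 2 with the filter, 1 with array weights and 1 with averaged probe sets. At the stricter threshold the ETS and IRF count was 3, that of regulators 0, of B lineage markers 2 and of T cell markers 1. By the methods' rule the ETS and IRF count was 2, that of regulators 1 and of erythroid markers 0. Averaged probe sets gave 1 regulator, robust variances 4 B lineage markers, and the probe set of largest spread 0 erythroid markers.

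Without 1 mouse, the log2 changes ranged from 0.66 to 1.20 for Pou2af1, -0.46 to -0.26 for Pou2f2, -0.07 to 0.18 for Siah1a, 0.45 to 0.61 for Siah2 and 0.11 to 0.35 for Spib, and from -0.50 to 0.00 for Siah1a probe set 1420106_at. The counts ranged from 0 to 1 for member probe sets called higher, 0 to 1 for those called lower, 0 to 1 for POU2 genes, 0 to 1 for SIAH genes, 3 to 5 for ETS and IRF genes, 8 to 10 for targets, 0 to 4 for regulators, 2 to 7 for B lineage markers, 10 to 12 for plasmacytoid dendritic cell markers, 2 to 2 for myeloid and for NK cell markers, 2 to 4 for T cell markers and 1 to 3 for erythroid markers.

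With the replicate number as a block, Pou2af1 kept its call (0.99, adjusted p = 0.0306 from limma), no other member passed, and the NK cell count went from 2 to 4. Same-numbered WT and BCS mice correlated in their deviations from the group means with r = -0.0327, 0.0494 and 0.0913 over 20383 probe sets, and not every mouse was closest to its own number, so the numbers were not taken to pair the mice. Quantile normalization changed no call, since the arrays already share 1 distribution. For Pou2f2, signal over background limits what can be read.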

Other observations

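The genes next to each member in the RefSeq order of GRCm38.p6 were counted, 10 measured protein coding genes on each side, after the values of these genes had been computed. Around Siah2, 5 of 20 neighbors fell, beside 4.7% of all genes. They were the purinergic receptor genes P2ry12, P2ry13 and P2ry14, with log2 changes of -2.27, -2.27 and -1.34, the profilin gene Pfn2 with -1.77 and the ubiquitin ligase gene Rnf13 with -0.40. P2ry12 was near the array median of 20 in the BCS mice (25, 23.5 and 17.4), so the size of its fall is not well measured. The P2ry genes lie next to each other in this order. P2ry14 had intensities of 1855, 2477 and 2875 in the WT mice and of 1159, 786 and 887 in the BCS mice, and Siah2 differed in the opposite direction without passing. Around Pou2af1 1 of 20 neighbors fell, the RNase gene Zc3h12c, from 449, 681 and 711 in the WT mice to 133, 113 and 149 in the BCS mice (log2 change -2.19, adjusted p = 0.000618 from limma). Around Siah1a 2 neighbors rose and 2 fell, among them the adenylyl cyclase gene Adcy7 with a log2 change of -0.79. Around Spib 1 neighbor fell, the aspartic protease gene Napsa with -0.75, and around Pou2f2 1 fell, Dedd2 with -0.92.

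Markers of other cell types were counted too, beside the 7.85% of all genes that passed in either direction. The lists and counts were small, so the shares are not read as a result about these cell types. Of 11 measured NK cell markers 2 fell, and all 11 had lower means. Klrd1 had a log2 change of -2.34, and Klrk1 went from a mean of 42.5 in WT mice to values below the array median of 20 in each BCS mouse, so that the size of its fall is not measured. Of 14 myeloid markers 2 fell, Csf1r with -2.40 and Ly86 with -1.53, and the summed intensity of the list varied from 30632 to 80920 among the WT mice and from 11175 to 51243 among the BCS mice. Among the 11 T cell markers 3 passed, Lat with a log2 change of 1.97, Thy1 with 1.45 and Cd8a with -2.71, and the study had picked out Lat from these samples. Cd8a had 98.2, 101.8 and 342.5 in the WT mice and 26.8, 27.9 and 14.6 in the BCS mice. The BCS values are near the array median of 20, so the size of its fall is not well measured. Of 8 erythroid and megakaryocyte markers 1 passed, the transferrin receptor gene Tfrc, with a log2 change of -0.63.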
